A study of Homo sapiens with 10 samples.

Results

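Chromatin immunoprecipitation with sequencing (ChIP-seq) listed 242130 peaks on chromosomes 1-22 and X in 22RV1 cells that carried the HA-RBN plasmid, and 2383 of them, or 0.984%, form the set described here. A member overlapped no peak of the matched empty vector, EV(RBN), by a single base, and its summit lay within 250 bp of a summit in the control siRNA library, which belongs to another experiment of the series. The members were therefore selected on measured values of 3 libraries, HA-RBN, EV(RBN) and the control siRNA, and their presence or absence in these is not a result. The rule did not use the RB1 siRNA, EV(245-255) and HA-RB(245-255) libraries, and the comparisons rest on these 3 and on the position of the summits.

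22RV1 is an established human prostate cancer line. The control siRNA group was transfected with a control siRNA and the RB1 siRNA group with an siRNA against RB1. The EV(245-255) group carried an empty vector and the HA-RB(245-255) group a plasmid for RB residues 245 to 255 with an HA tag, a short peptide added so that a protein can be recognised by an antibody. The EV(RBN) group carried an empty vector and the HA-RBN group a plasmid for the insert that the labels call RBN, whose extent they do not state. A genotype field calls HA-RB(245-255) a control group, and its title was followed. Each group had 1 library, so there are no replicates, no p-value is given, and every interval is an exact Clopper-Pearson 95% interval that covers counting error only. The siRNA pair and the 245-255 pair also had IgG libraries, which were not analysed here, and no IgG library is labelled for the RBN pair. The labels name no antibody.

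RB, the product of RB1, binds E2F transcription factors and holds back genes of DNA replication and cell division. TRIM24, which the series title names, is a bromodomain protein that reads histone marks and acts as a co-regulator of nuclear receptors. A peak of a ChIP-seq library marks a place where sequenced fragments pile up over the local background. A gene start in such data is often an open, GC-rich promoter, where DNA-binding factors and the transcription machinery gather.

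The start regions of 6 genes whose windows held a member summit are printed as examples of gene starts with a member. They are the 250 bases before the transcription start, 5′ to 3′ on the strand of the gene, from the RefSeq promoter table of build GRCh38.p14. Capitals mark matches, on either strand, to the motifs searched, which are spelled out further on. ELK4, an ETS factor that acts with SRF, lies on the minus strand and its bases are chr1:205632012-205632261. SNRK, a kinase related to AMPK, lies on the plus strand with chr3:43286290-43286539. DPYD, the enzyme that breaks down pyrimidines, lies on the minus strand with chr1:97921060-97921309. SH3GL2, endophilin A, which bends membranes in endocytosis, lies on the plus strand with chr9:17578816-17579065. BUB1, a kinase of the spindle checkpoint, lies on the minus strand with chr2:110678064-110678313. JUND, a subunit of the AP-1 transcription factor, lies on the minus strand with chr19:18281623-18281872.
ELK4: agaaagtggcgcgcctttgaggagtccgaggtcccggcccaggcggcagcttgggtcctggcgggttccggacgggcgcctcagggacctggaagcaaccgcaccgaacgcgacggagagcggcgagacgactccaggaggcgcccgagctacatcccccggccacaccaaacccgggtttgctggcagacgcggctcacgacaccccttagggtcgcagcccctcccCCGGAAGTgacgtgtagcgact
SNRK: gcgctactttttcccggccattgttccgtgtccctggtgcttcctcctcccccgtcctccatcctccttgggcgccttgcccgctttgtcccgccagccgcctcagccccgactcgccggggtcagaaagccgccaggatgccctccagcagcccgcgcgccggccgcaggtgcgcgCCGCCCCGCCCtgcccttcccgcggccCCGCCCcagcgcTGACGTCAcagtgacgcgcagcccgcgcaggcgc
DPYD: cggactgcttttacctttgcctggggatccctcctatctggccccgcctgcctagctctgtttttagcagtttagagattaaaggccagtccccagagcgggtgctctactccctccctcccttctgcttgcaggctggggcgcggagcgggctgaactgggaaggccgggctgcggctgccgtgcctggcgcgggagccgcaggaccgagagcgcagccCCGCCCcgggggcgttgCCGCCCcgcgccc
SH3GL2: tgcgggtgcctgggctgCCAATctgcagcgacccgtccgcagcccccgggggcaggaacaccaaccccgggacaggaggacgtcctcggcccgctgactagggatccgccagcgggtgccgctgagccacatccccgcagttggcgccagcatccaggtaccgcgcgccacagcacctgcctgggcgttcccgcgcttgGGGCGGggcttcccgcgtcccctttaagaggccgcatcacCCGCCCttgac
BUB1: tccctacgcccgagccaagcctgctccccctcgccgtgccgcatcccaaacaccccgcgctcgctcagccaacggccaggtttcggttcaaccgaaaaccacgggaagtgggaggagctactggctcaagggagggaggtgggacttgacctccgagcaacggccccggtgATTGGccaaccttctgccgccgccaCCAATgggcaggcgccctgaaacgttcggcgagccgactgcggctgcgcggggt
JUND: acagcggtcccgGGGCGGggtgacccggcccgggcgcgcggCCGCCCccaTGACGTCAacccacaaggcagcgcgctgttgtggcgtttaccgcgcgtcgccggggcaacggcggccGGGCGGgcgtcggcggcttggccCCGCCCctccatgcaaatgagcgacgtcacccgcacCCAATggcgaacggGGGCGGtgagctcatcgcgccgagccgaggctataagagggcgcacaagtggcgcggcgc

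The ELK4 window held 1 ETS match, 22 bases before the start, and its member summit lay 195 bases before the start. The SNRK window held a cyclic AMP response element (CRE) match 34 bases before the start and 3 GC boxes, with the summit 239 bases before the start. JUND held a CRE match 200 bases before the start, 5 GC boxes and 1 CCAAT box, with the summit 167 bases before the start. BUB1 held 2 CCAAT boxes, DPYD 2 GC boxes, and SH3GL2 2 GC boxes and 1 CCAAT box. The GC content of these 6 stretches ran from 67.6% in BUB1 to 74.8% in JUND. Of the genes named by the rule, 3 further windows held a member summit and had lower values, 56.4% in IFT70B, 58.4% in SLF1 and 64.4% in LRRIQ3. They are not printed because the IFT70B summit lies after the start and the other windows overlap another protein-coding gene. The IFT70B stretch held none of the motifs.

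Most members were weak peaks. The fragments stacked at a summit were recovered from the authors' fold enrichment and p-value of the peak. The members held a median of 5 HA-RBN fragments at the summit, with a middle range from 3 to 7, a 95th percentile of 14 and a highest value of 170. HA-RBN peaks that overlapped an EV(RBN) peak and also had a control siRNA summit held a median of 16, with a middle range from 9 to 30. The 189782 HA-RBN-only peaks without a control siRNA summit held a median of 3, with a middle range from 2 to 4. The members thus lay between these groups and much nearer to the weaker one. In the control siRNA library the member summits held a median of 6 fragments, with a middle range from 4 to 10, against 24 (12 to 45) at the shared peaks. Of the members, 525 had at least 8 HA-RBN fragments, 216 at least 12 and 51 at least 20. A −log10 q-value of 5 or more in the authors' list was reached by 223 members, or 9.36%, and by 4.16% of all HA-RBN peaks.

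**Figure D1:**
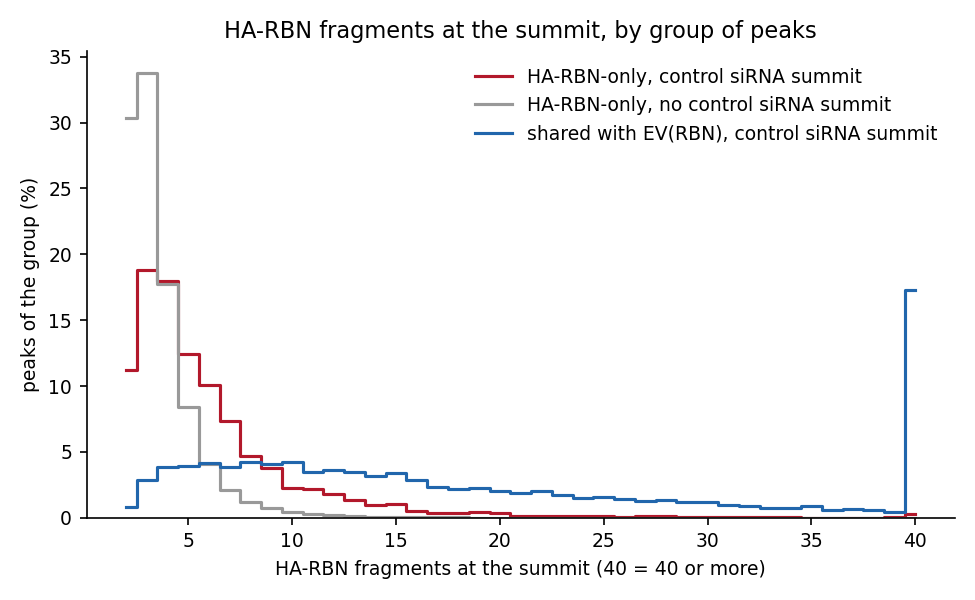
Share of peaks (y axis, percent of the group) by number of HA-RBN fragments at the summit (x axis, with 40 standing for 40 or more) for members, HA-RBN-only peaks without a control siRNA summit, and HA-RBN peaks shared with EV(RBN) that have a control siRNA summit. The members have a median of 5 fragments, between those of the other groups (3 and 16), and at 5 to 7 fragments their line is the highest of the 3.

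The absence of an EV(RBN) peak has to be read against the depth of that library. The library background was 0.367 fragments per base in EV(RBN) and 0.634 in HA-RBN, a ratio of 0.578. A member with 5 HA-RBN fragments would hold 2.89 fragments in EV(RBN) at the same enrichment, a member with 12 would hold 6.94 and one with 20 would hold 11.6. The weakest listed EV(RBN) peak held 2 fragments. The median listed EV(RBN) peak held 3. For a typical member an equal enrichment in EV(RBN) would thus stand near the median of the peaks listed there. The part of depth in the absence of a peak was not tested. The deposited list gives no value for a place without a peak, so the number of EV(RBN) fragments at a member is not known. The nearest EV(RBN) peak lay a median of 5290 bp from a member. It came within 500 bp of 217 members (9.11%) and lay over 5 kb away from 1238 (52.0%).

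The mirror of the rule gave 731 EV(RBN)-only peaks with a control siRNA summit, or 0.694% of the 105307 EV(RBN)-only peaks, against 2383 of 192165 HA-RBN-only peaks (1.24%). The member set was 3.26 times as large as its mirror. Peaks listed in both libraries of the RBN pair had a control siRNA summit more often than either, in 6191 of 49965 (12.4%). The depth of the RBN libraries differs in the same direction as the sizes of the sets, and its part in them was not tested.

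By the distance rule, HA-RBN-only peaks crowded toward the control siRNA summits. There were 702 at 0 to 50 bp, 540 at 51 to 100 bp, 444 at 101 to 150 bp, 387 at 151 to 200 bp and 310 at 201 to 250 bp. Outside the limit, 255 lay at 251 to 300 bp, so the numbers ran on across it without a step. The median member distance was 96 bp. The members nearest to the limit on its inner side stood at 250 bp. One, at the DPYD start, had its summit at position 97921285 of chromosome 1, with 12 HA-RBN and 16 control siRNA fragments. The other was intergenic on chromosome 3 (summit 157543050), with 5 fragments in each. The nearest on the outer side stood at 251 bp, on chromosome 12 (summit 22136806) with 6 fragments in each, and on chromosome 2 (summit 113394733) with 7 HA-RBN and 11 control siRNA fragments. These values describe the rule and are not tested.

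In the 3 libraries that the rule did not use, about 3 in 10 members had a summit at the same place. An RB1 siRNA summit lay within 250 bp of 650 of 2383 members, 27.3% (25.5 to 29.1), where 4.62% of all HA-RBN peaks had one. An EV(245-255) summit lay within 250 bp of 746 members, 31.3% (29.5 to 33.2), against 6.71% of all HA-RBN peaks. An HA-RB(245-255) summit did so at 738 members, 31.0% (29.1 to 32.9), against 7.34%. For HA-RBN-only peaks without a control siRNA summit the shares were 1.69%, 3.37% and 3.89% in the same order. For shared peaks with a control siRNA summit they were 60.2%, 58.3% and 60.3%. The members therefore stood above the HA-RBN-only peaks without a control siRNA summit and below the shared peaks in each of the 3 libraries, with intervals that did not overlap. The rule gives every member a control siRNA summit, which most HA-RBN peaks lack. The gap to all HA-RBN peaks cannot be told apart from that requirement. HA-RBN peaks shared with EV(RBN) but without a control siRNA summit had shares of 8.24%, 12.56% and 13.52%. The siRNA pair shares 6192 summits, where the control siRNA list holds 20718. Of all chromosome positions, 0.559%, 1.23% and 1.52% lie within 250 bp of an RB1 siRNA, EV(245-255) and HA-RB(245-255) summit.

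These 3 lists tile the chromosomes with long intervals, of a median width of 18202 to 51048 bp, and give 1 summit per interval. A member without a summit in them may lie inside an interval whose summit is elsewhere, so a missing summit does not show that the place was unoccupied. At least 1 of the 3 lists had a summit at 1217 members (51.1%), all 3 at 249 (10.4%), 2 at 419 (17.6%), 1 at 549 (23.04%) and none at 1166 (48.9%). Of all HA-RBN peaks, 12.9% had at least 1. The summits that were near lay close: 215 of the nearest RB1 siRNA summits were at 0 to 50 bp from the member, 70 at 201 to 250 bp and 123 over the whole stretch from 251 to 500 bp.

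**Figure D2:**
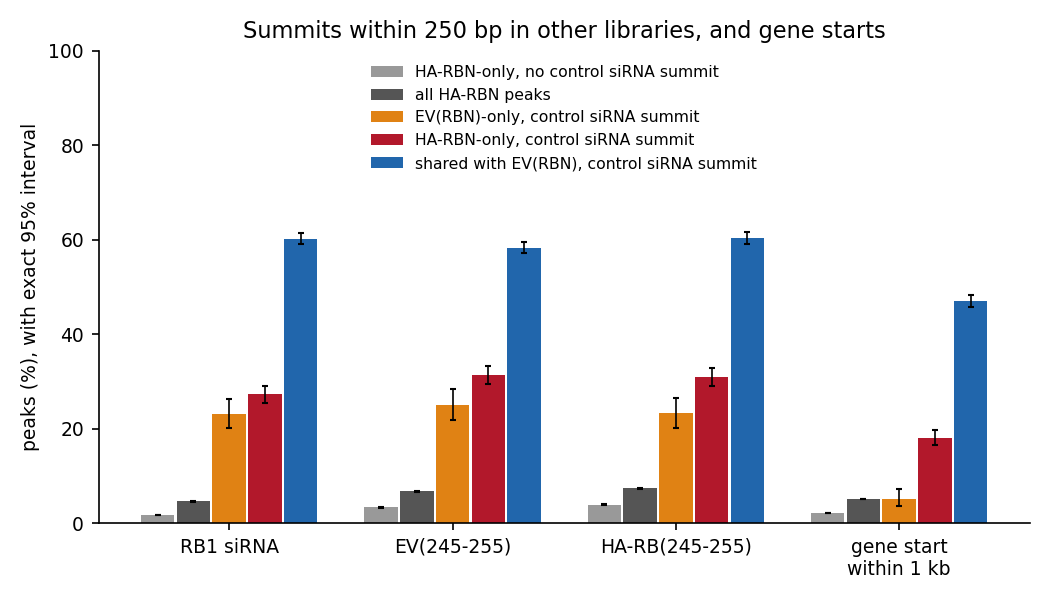
Share of peaks (y axis, percent, bars with exact 95% intervals) with a summit within 250 bp in RB1 siRNA, EV(245-255) and HA-RB(245-255), and with the summit within 1 kb of a gene start, for 5 groups of peaks. Member bars stand at 27.3%, 31.3%, 31.0% and 18.1%, below the shared peaks and above all HA-RBN peaks.

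**Figure D3:**
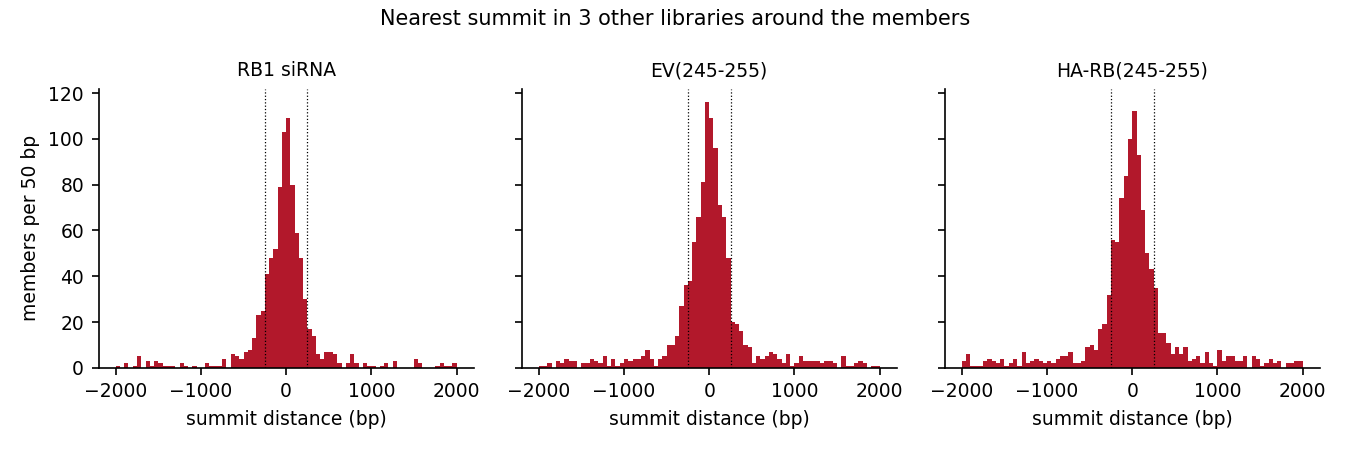
Number of members (y axis, per 50 bp) by the signed distance from the member summit to the nearest summit (x axis, bp) in each of the 3 libraries that the rule did not use, with dotted lines at 250 bp on either side. The distances pile up around 0 in all 3 panels and are thinly spread beyond the dotted lines.

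Members with a summit in more of the other lists were also stronger. The 1166 members with none of the 3 held a median of 4 HA-RBN and 4 control siRNA fragments. The 249 members with all 3 held medians of 7 and 12. The share at a gene start was 8.05% of the former and 31.8% of the latter. The gap between members and shared peaks in RB1 siRNA was smaller at like numbers of control siRNA fragments, a value that the rule used, than over all peaks. At 4 to 9 control siRNA fragments, an RB1 siRNA summit was found at 22.9% of 1293 members (20.6 to 25.3) and at 35.0% of 1093 shared peaks (32.2 to 38.0). At 10 to 19 fragments the shares were 44.9% of 454 members (40.3 to 49.6) and 52.9% of 1485 shared peaks (50.4 to 55.5). At 20 to 39 they were 53.5% of 155 members (45.4 to 61.6) and 63.7% of 1693 shared peaks (61.4 to 66.0). At 40 or more they were 82.9% of 35 members (66.3 to 93.4) and 80.4% of 1829 shared peaks (78.5 to 82.2), with overlapping intervals. At like numbers of HA-RBN fragments the gap varied. An RB1 siRNA summit was found at 12.6% of members (10.2 to 15.2) and 29.2% of shared peaks (23.4 to 35.6) with 2 or 3 fragments. With 4 or 5 it was found at 22.9% of 725 members (19.9 to 26.1) and 37.1% of 483 shared peaks (32.7 to 41.5). The intervals did not overlap in these bins. With 6 or 7 it was found at 36.7% (32.05 to 41.5) and 41.2% (36.8 to 45.6), with overlapping intervals. The intervals also overlapped at 8 to 11 fragments, with 43.4% and 51.7%, and at 12 to 19, with 50.9% and 60.4%. With 20 or more it was found at 45.1% of 51 members (31.1 to 59.7) and 74.4% of 2539 shared peaks (72.6 to 76.1).

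The 245-255 libraries gave like shares. EV(245-255) summits were found at 27.1% of members and 35.7% of shared peaks with 4 to 9 control siRNA fragments, and at 50.7% and 54.7% with 10 to 19, where the intervals overlapped. For HA-RB(245-255) the shares were 27.5% and 38.0% with 4 to 9 fragments, and 50.2% and 54.1% with 10 to 19, again with overlapping intervals. At 20 to 39 fragments they were 52.3% of 155 members (44.1 to 60.3) and 64.2% of 1693 shared peaks (61.9 to 66.5). For EV(245-255) they were 64.5% (56.4 to 72.0) and 62.85% (60.5 to 65.15) in that bin. With 40 or more, members stood at 74.3% in EV(245-255) and 80.0% in HA-RB(245-255). Shared peaks stood at 72.7% and 77.0% there, with overlapping intervals. Over all bins, 23.1%, 25.03% and 23.3% of the mirror set had a summit in RB1 siRNA, EV(245-255) and HA-RB(245-255), and within each bin its intervals overlapped those of the members. With 10 to 19 control siRNA fragments an RB1 siRNA summit was found at 51.0% of 100 mirror peaks (40.8 to 61.1).

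**Figure D4:**
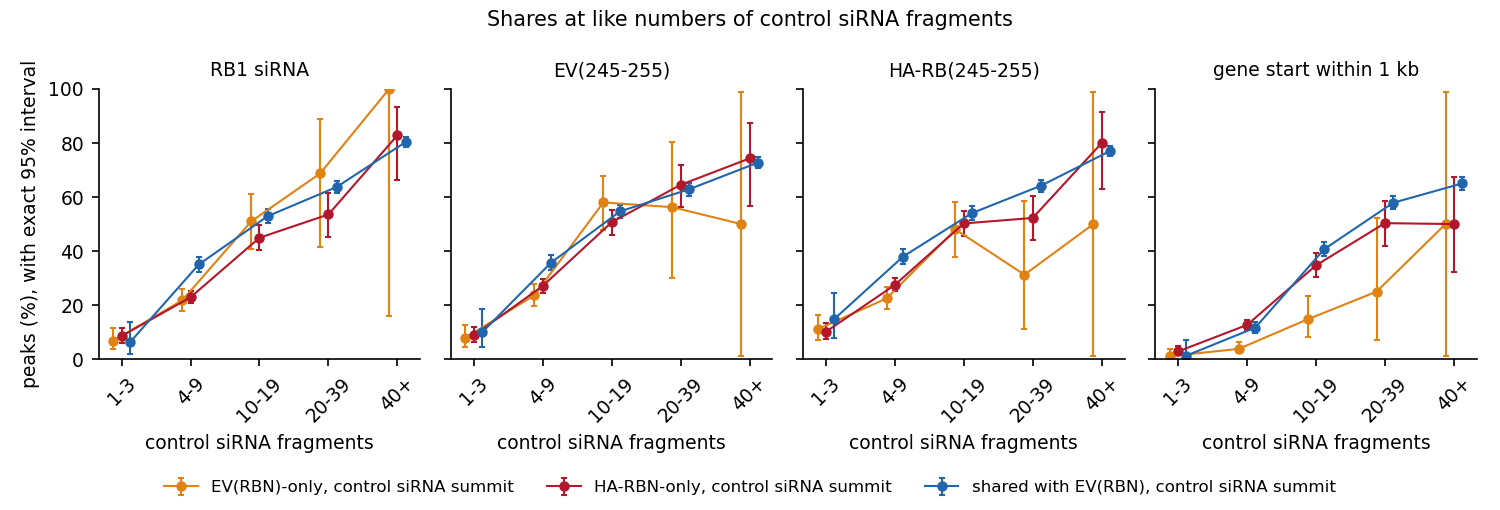
Share of peaks (y axis, percent, points with exact 95% intervals) with a summit within 250 bp in RB1 siRNA, EV(245-255) or HA-RB(245-255), or within 1 kb of a gene start, by number of control siRNA fragments (x axis) for members, shared peaks and the mirror set. Members and shared peaks have higher shares at 20 to 39 than at 1 to 3 fragments in every panel, and in the gene start panel the mirror set lies below the members from 4 to 19 fragments; the mirror set has 16 peaks at 20 to 39 fragments and 2 above.

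Member summits lay at gene starts more often than HA-RBN peaks in general. Starts came from the RefSeq promoter table, which lists 22132 starts of 15812 protein-coding genes; starts on chromosome 8 were not used here, which left 2278 members. A start lay within 1 kb of 412 of them, 18.1% (16.5 to 19.7), against 5.11% of all HA-RBN peaks. Another 713 (31.3%) lay elsewhere in a protein-coding gene and 1153 (50.6%) lay outside such genes. Not all 19974 protein-coding genes have a listed start, so members at unlisted starts are counted in these 2 classes. The RB1 member, 255 bp inside the lower end of its gene, counts as gene body, with its nearest listed start 109107 bp away. Among shared peaks with a control siRNA summit 47.0% were at a start, and among HA-RBN-only peaks without one 2.15% were. Shared peaks without one stood at 11.25%. Every member has a control siRNA summit, so the gap to all HA-RBN peaks cannot be told apart from that part of the rule. Of the 412 members, 280 lay within 250 bp of the start and 141 within 100 bp. They were spread over both sides, with 185 upstream and 227 downstream.

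The mirror set differed from the members in this respect. Only 36 of 690 EV(RBN)-only peaks with a control siRNA summit were at a gene start, 5.22% (3.68 to 7.15). With 4 to 9 control siRNA fragments the share was 3.79% of 396 mirror peaks (2.13 to 6.17) and 12.7% of 1233 members (10.8 to 14.6). With 10 to 19 it was 14.7% of 95 (8.30 to 23.5) and 34.7% of 438 (30.3 to 39.4). With 20 to 39 there were 16 mirror peaks and the intervals overlapped. The shared peaks stood at 11.6% and 40.7% in the first 2 of these bins, so members and shared peaks overlapped in their intervals there. At like numbers of HA-RBN fragments the members lay below the shared peaks where they were strong, with 35.0% (27.6 to 43.0) against 52.2% (49.5 to 54.9) at 12 to 19 fragments and 33.3% (20.4 to 48.4) against 60.1% (58.1 to 62.1) at 20 or more. The mirror peaks held a median of 3 EV(RBN) fragments, against 5 HA-RBN fragments at the members, and the part of this difference in strength and depth was not tested.

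Members at gene starts were stronger than the rest. They held a median of 7 HA-RBN and 11 control siRNA fragments, against 4 and 5 both in gene bodies and outside genes. An RB1 siRNA summit was found at 51.2% of the members at starts (46.3 to 56.1), at 17.8% of those in gene bodies (15.1 to 20.8) and at 25.1% of those outside genes (22.7 to 27.8). An EV(245-255) summit was found at 48.5%, 27.9% and 27.5% in that order. In RB1 siRNA alone the members outside genes stood above those in gene bodies with intervals that did not overlap.

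The promoter windows that held a member summit were GC-rich. A window runs from 250 bases before to 50 after a start, and 172 windows held one, with a median GC content of 68.5% and 29 CpG dinucleotides. All 22132 windows had medians of 62.3% and 21, and the 1559 windows with a shared summit 66.0% and 27. Some windows overlap and share a summit, so they are not independent. Motifs were searched on both strands, and matches of different motifs may overlap. GC boxes (GGGCGG, bound by SP1 and its relatives) stood in 80.8% of the member windows (74.1 to 86.4), 78.8% of the windows with a shared summit and 56.3% of all windows. ETS sites (CCGGAAGT) stood in 9.30% (5.41 to 14.7), 8.98% and 5.34% in that order. CCAAT boxes (CCAAT, bound by NF-Y) stood in 25.6% of member windows (19.2 to 32.8), in 34.6% of all windows and in 42.1% of windows with a shared summit (39.6 to 44.6). E2F sites (TTTCCCGC or TTTGGCGC) stood in 5.23% of member windows (2.42 to 9.70), 5.90% of those with a shared summit and 2.80% of all. For CRE sites (TGACGTCA) the shares were 2.91%, 3.78% and 2.26% in this order, and for E-boxes (CACGTG) 10.5%, 10.97% and 8.34%. For NRF1 sites (GCGCATGC) they were 4.65%, 6.86% and 3.74%, and for YY1 sites (AGATGGCGG) 2.33%, 4.75% and 1.99%. Of these motifs, the interval of the member windows left out the share of all windows for GC boxes, ETS sites and CCAAT boxes, and that of the windows with a shared summit for CCAAT boxes alone.

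Among the 5 genes always reported, RB1 had a member and TRIM24, E2F1, MTOR and DUSP2 had none. At RB1 itself the member summit lay at position 48304006 of chromosome 13, 255 bp inside the lower end of the gene, 7 bp from the control siRNA summit. It held 6 HA-RBN, 9 control siRNA, 23 RB1 siRNA, 9 EV(245-255) and 6 HA-RB(245-255) fragments. Relative to all summits that the siRNA pair shares, the RB1 siRNA value was 1.097 higher on the log2 scale (counting interval −0.07 to 2.39), an interval that holds 0. At TRIM24, HA-RBN held 28 fragments and the peak overlapped an EV(RBN) peak with 10, so that it was no member although a control siRNA summit lay 69 bp away. HA-RBN peaks at E2F1 (12, 16 and 18 fragments), MTOR (11) and DUSP2 (18) had no control siRNA summit within 10 kb.

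The strongest members at gene ends had between 12 and 31 HA-RBN fragments. ELK4 led by the authors' fold enrichment, at 9.57, with 24 HA-RBN fragments (Poisson counting interval 15.4 to 35.7). It had 19 fragments in the control siRNA library, 14 in EV(245-255) and 12 in HA-RB(245-255), and no RB1 siRNA summit within 250 bp. An equal enrichment in EV(RBN) would give it 13.9 fragments, and the nearest EV(RBN) peak lay 9477 bp away. RXYLT1, which builds the sugar chain of dystroglycan, had 22 HA-RBN, 23 control siRNA, 40 RB1 siRNA and 24 HA-RB(245-255) fragments, and no EV(245-255) summit. ANKRD13A, an ubiquitin-binding protein, had 31 HA-RBN, 32 control siRNA, 13 EV(245-255) and 13 HA-RB(245-255) fragments, the most of the 12 in HA-RBN. SNRK had 15 HA-RBN, 35 control siRNA, 38 RB1 siRNA and 15 HA-RB(245-255) fragments.

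NDFIP1, an adaptor of ubiquitin ligases, had 17 HA-RBN, 10 control siRNA, 32 RB1 siRNA and 12 HA-RB(245-255) fragments. Its RB1 siRNA value stood 1.42 higher on the log2 scale (counting interval 0.36 to 2.61) relative to all shared summits, 1 of many such ratios and from 1 library each. KIAA0825 had 14 HA-RBN, 10 control siRNA, 11 RB1 siRNA and 5 EV(245-255) fragments, at a summit that also lies inside SLF1. FPGT, an enzyme of fucose metabolism, had 14 HA-RBN fragments and 13 in each of the control siRNA, RB1 siRNA and EV(245-255) libraries. The FPGT summit also lies inside FPGT-TNNI3K. DPYD had 12 HA-RBN, 16 control siRNA, 16 EV(245-255) and 12 HA-RB(245-255) fragments. These 4 genes had between 12 and 17 HA-RBN fragments, and the lists with a summit differed from gene to gene.

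IFT70B, a part of the intraflagellar transport machinery, was the weakest of the 12 in the other libraries, with 12 HA-RBN, 4 control siRNA and 4 HA-RB(245-255) fragments. INPP5A, an inositol phosphatase, had 25 HA-RBN fragments and the most of the 12 elsewhere, with 68 control siRNA, 54 EV(245-255) and 49 HA-RB(245-255) fragments. SH3GL2 had 14 HA-RBN, 24 control siRNA and 35 RB1 siRNA fragments. IMPA1, an inositol monophosphatase, had 13 HA-RBN, 20 control siRNA and 12 EV(245-255) fragments. None of the 12 had a summit in all 3 of the lists that the rule did not use.

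Inside genes and over 1 kb from their outer ends, the 6 members with the highest fold enrichment had between 13 and 20 HA-RBN fragments. They lay in FRMPD4 and NRXN3, genes of the synapse, in NCOR1, a co-repressor of nuclear receptors, in POTEG, one of a family of closely similar genes, in ZFP1 and in SPART. The ZFP1 and SPART summits lay 80 and 152 bp downstream of listed inner starts of these genes. ZFP1, a zinc finger gene, had 20 HA-RBN, 31 control siRNA, 12 EV(245-255) and 13 HA-RB(245-255) fragments. SPART, the gene of a hereditary spastic paraplegia, had 15 HA-RBN, 23 control siRNA, 32 RB1 siRNA, 12 EV(245-255) and 7 HA-RB(245-255) fragments. The NCOR1 member had 13 HA-RBN and 6 control siRNA fragments, the NRXN3 member 13 and 23, and neither had a summit in another list. The NCOR1 member also lay 915 bp from an EV(RBN) peak.

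The strongest member by the authors' fold enrichment, 15.6, lay outside genes on chromosome 9, at chr9:15126455-15127012. Its summit held 53 HA-RBN fragments (Poisson counting interval 39.7 to 69.3), 50 control siRNA, 80 RB1 siRNA, 69 EV(245-255) and 39 HA-RB(245-255) fragments. It was high in all 5 libraries with a summit there, and an equal enrichment in EV(RBN) would give 30.6 fragments. The nearest EV(RBN) peak lay 8300 bp away and the nearest protein-coding gene, TTC39B, 36817 bp away. In the 245-255 pair the log2 ratio of HA-RB(245-255) over EV(245-255), relative to all shared summits, was −0.82 (counting interval −1.43 to −0.24). This too is 1 of many such ratios, from 1 library each.

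Another intergenic member, at chr4:189314037-189315077, held 16 HA-RBN, 77 control siRNA, 49 RB1 siRNA, 37 EV(245-255) and 39 HA-RB(245-255) fragments. Its log2 ratio of RB1 siRNA over control siRNA, relative to all shared summits, was −0.91 (counting interval −1.46 to −0.37). That ratio is 1 of many, from 1 library each, and its denominator is the library that the rule used. A member inside the pseudogene HERC2P11 on chromosome 15 held 21, 42, 44, 15 and 20 fragments in the same order of libraries. The members on chromosome 5 (summit 39787939) and chromosome 19 (summit 28888489) held 14 and 20 HA-RBN fragments.

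**Figure D5:**
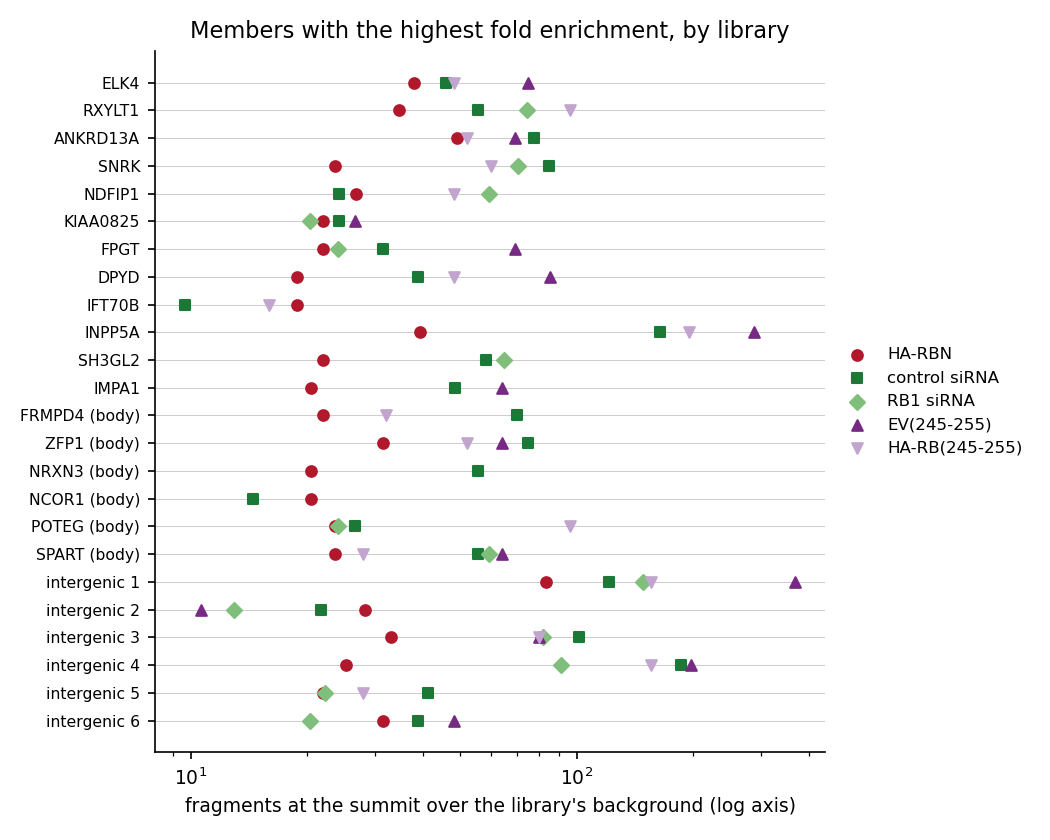
Fragments at the summit divided by the library background (x axis, log scale) in HA-RBN and in the 4 other libraries with a summit within 250 bp, for the 12 gene end, 6 gene body and 6 intergenic members with the highest fold enrichment (y axis). A missing symbol means no listed summit within 250 bp. The first intergenic member, on chromosome 9, lies farthest to the right in HA-RBN.

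Some members sat on sequence that occurs in several copies in the genome, where the placing of fragments is less certain. The summits of 4 members lay in nuclear pseudogenes of mitochondrial genes, 0.168% (0.0457 to 0.429) against 0.0297% of all HA-RBN peaks. The one with the highest fold enrichment, in MTND5P3 on chromosome 13, held 18 HA-RBN, 9 control siRNA, 7 RB1 siRNA and 2 EV(245-255) fragments, and the one in MTCO1P11 on chromosome 9 held 19 HA-RBN and 6 control siRNA fragments. The member with the most HA-RBN fragments, 170, lay in the ribosomal RNA gene RNA45SN1 on chromosome 21, with 69 in EV(245-255) and 65 in HA-RB(245-255); its control siRNA fragments could not be recovered. A member near MIR6724-1 on the same chromosome held 72 HA-RBN, 150 control siRNA and 225 RB1 siRNA fragments, and was chosen here after its values were seen. The authors' fold enrichment at these last 2 was 1.72 and 1.96.

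Members also lay in long stretches without annotated genes, which in this build are found mainly at the centromeres. No gene of any kind lay within 500 kb of 141 members, 5.92% (5.00 to 6.94), against 1.96% of all HA-RBN peaks and 3.796% of shared peaks with a control siRNA summit. These 141 held a median of 4 fragments in HA-RBN and 4 in the control siRNA library. An RB1 siRNA summit was found at 26 of them, 18.4% (12.4 to 25.8). EV(245-255) and HA-RB(245-255) summits were found at 4 (2.84%) and 5 (3.55%), with intervals that ended at 7.10% and 8.08%. Among these 141 the share with an RB1 siRNA summit stood above the shares with a 245-255 summit, with intervals that did not overlap. The same shares were not computed for other HA-RBN peaks in such stretches, so this cannot be called particular to the members. RB1 siRNA is also paired with the control siRNA library that the rule used.

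By chromosome, the members made up between 7.81% of the control siRNA summits on chromosome 22 and 14.2% on chromosome X, and 11.5% over all. Chromosomes 19 (8.43%) and 22 were the lowest. Of the HA-RBN-only peaks, 2.42% on chromosome X and 0.760% on chromosome 22 were members. Neighbouring members lay a median of 775 kb apart.

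The 245-255 pair sets the tagged fragment beside its empty vector. Of the members, 425 had a summit in both lists, with medians of 9 fragments in EV(245-255) and 8 in HA-RB(245-255). All 13633 summits that the pair shares had the same medians. The median log2 ratio of HA-RB(245-255) over EV(245-255) at the members, relative to all shared summits, was −0.03 (order-statistic 95% interval −0.17 to 0). It was above 0 at 166 members, below 0 at 214 and exactly 0 at 45. It lay over 1 log2 unit from 0 at 44 members (10.4%), 11 above and 33 below, where 7.08% of all shared summits did, 470 above and 495 below. Few fragments stand behind each ratio, and its SD was 0.63 over the members and 0.61 over all shared summits. With 1 library in each group, whether the construct changed the members as a whole was not tested.

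The siRNA pair shares the control siRNA library with the rule, so its values are a description. At the 650 members with an RB1 siRNA summit, the median log2 ratio of RB1 siRNA over control siRNA relative to all shared summits was 0.00 (−0.05 to 0.05), with 325 above and 325 below 0. The medians were 9 control siRNA and 11 RB1 siRNA fragments.

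Gene lists for the pathways of the study rarely met a member. Of 19974 protein-coding genes, 498, or 2.49%, had a member summit within 1 kb of either outer end. Of 517 matched list genes 8 did, 1.55%. Among them were RB1 and CCND3 of the RB pathway (2 of 26), BUB1 of the mitosis genes (1 of 25), PIK3R1 of mTOR signalling (1 of 50), ELK4 and JUND of the RAS and ERK cascade (2 of 29) and COX6C of the respiratory chain (1 of 47). No member stood at an end of the 50 genes of DNA replication and E2F targets, the 21 DUSP genes, the 16 TRIM24 relatives and partners, the 22 p53 targets, the 26 interferon genes, the 55 ribosomal protein genes, the 42 splicing genes, the 48 chromatin regulators or the 40 genes of other organs. With so few hits, no list stands apart. The same lists met the shared peaks with a control siRNA summit far more often, at 165 of 517 genes (31.9%), against 18.2% of all protein-coding genes.

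JUND was the strongest of these genes in the other libraries. It held 24 HA-RBN, 61 control siRNA, 107 RB1 siRNA, 54 EV(245-255) and 53 HA-RB(245-255) fragments. PIK3R1, the regulatory subunit of PI3 kinase, held 6 HA-RBN, 17 control siRNA, 18 RB1 siRNA and 19 HA-RB(245-255) fragments. BUB1 held 6 HA-RBN, 4 control siRNA, 6 RB1 siRNA and 5 EV(245-255) fragments. CCND3, cyclin D3, had 16 HA-RBN and 20 control siRNA fragments at a summit that lies inside its neighbour TAF8, a subunit of the basal transcription factor TFIID. COX6C, a subunit of cytochrome c oxidase, held 7 in each of HA-RBN, the control siRNA and HA-RB(245-255).

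Defining genes of the prostate line were looked up in the same way. HA-RBN peaks at FOXA1, a pioneer transcription factor (12 and 17 fragments), and at KLK3, the gene of prostate-specific antigen (6 fragments), had no control siRNA summit within 250 bp. HOXB13, a homeobox gene of the prostate, had no HA-RBN summit within 1 kb of its ends. None of these 3 genes had a member at an end.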

How the data were processed

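ChIP-seq peak lists of 6 immunoprecipitated libraries were analysed, 1 per group, each listed per library. The labels give build hg38, and the submitters' processing notes name MACS2 2.1.0, Bowtie 1.1.2, Trimmomatic 0.33 and bcl2fastq 2.17 without saying what each did. Each deposited line gives a score, a fold enrichment ratio over the local background, a −log10 p-value, a −log10 q-value and the summit position, all made by the authors. The members and gene lists were chosen with earlier results of these data known.

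Peaks on chromosomes 1-22 and X were analysed in Python 3.11.15 (scipy 1.17.1, pandas 2.3.3, numpy 2.4.6; matplotlib 3.10.9 for plots). Fragments at a summit were solved from fold enrichment, taken as pileup plus 1 over background plus 1, and the Poisson p-value. This step was tested on made-up lists built with the same formulas, where 100% of peaks were recovered in each kind of list. That test checks the solving only and cannot show that the authors' values follow these formulas. At most 0.0640% of a list's peaks could not be solved. The background per base, an index of depth, ranged from 0.187 in EV(245-255) to 0.634 in HA-RBN. The depth in reads was not given in the sources used here. Gene positions and starts came from RefSeq tables of GRCh38.p14.

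Genes named are RB1, TRIM24, E2F1, MTOR and DUSP2, the members with the highest fold enrichment (12 at outer ends of protein-coding genes without LOC or LINC symbols, 6 in gene bodies and 6 intergenic), and up to 4 genes per list. Results for a few of the genes so chosen are left out of the text. Of 15 lists, 517 of 519 symbols matched. Alternatives changed the summit distance, the q-value, the definition of overlap, the gene window and the fragment minimum.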

Additional observations from a re-analysis of the deposited data

How the results depend on the processing

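The limits are 1 library per group, unknown read totals and few fragments per summit. With a control siRNA summit within 100 bp the set held 1242 members and its mirror 370, and the shares with an RB1 siRNA, EV(245-255) and HA-RB(245-255) summit were 30.3%, 34.8% and 34.9%. Within 500 bp the mirror held 1185 and the shares were 21.6%, 24.96% and 24.8%. With −log10 q of at least 2 there were 719 members and 68 mirror peaks, the shares were 47.0%, 49.0% and 50.1%, and 31.5% of members lay at a gene start. With compared summits allowed within 500 bp the shares were 32.4%, 38.5% and 37.9%. The share at a gene start was 16.2% with a window of 500 bp and 19.8% with 2 kb. Requiring at least 10 control siRNA fragments, chosen after seeing the data, gave 644 members, 118 mirror peaks, shares of 49.1%, 55.3% and 52.3%, and 39.3% at a gene start. These 26 values moved beyond the interval of the reported value or by over 1.5 times. The cause was not tested. The other 16 values did not, among them every one for counting a peak within 500 bp as shared. The median log2 ratio of the 245-255 pair ran from −0.14 to 0 under its alternatives. No paired analysis was possible because each group has 1 library.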
